A study of Homo sapiens with 8 samples.

Results

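The Hedgehog pathway genes described here are the 3 ligands SHH, IHH and DHH, the receptor PTCH1, the signal transducer SMO, the transcription factors GLI1, GLI2 and GLI3, and the ligand-binding inhibitor HHIP. They were chosen by name with earlier results of these data known, so counts of calls among them are descriptions. Their 22 probe sets are those that the array annotation assigns to 1 of these 9 genes and to no other. The array carries 54675 probe sets, and 19775 genes have such a probe set of their own. RNA came from human embryonic stem cells that the labels call H9, an established line, grown in mTeSR, a feeder-free medium. The cells were either undifferentiated or differentiating as embryoid bodies, which are free-floating aggregates that form derivatives of the germ layers. Ethanol at 20 mM was present for 24 h or left out (0 mM) in either stage, which gave 4 groups of 2 arrays, named A and B. The age of the embryoid bodies is not given in the sources used here, and no label says that arrays A and B came from separate cultures, so p-values measure only the spread between these samples.

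Hedgehog ligands are secreted proteins that bind PTCH1 on the receiving cell. Unbound PTCH1 holds SMO inactive, and ligand binding releases SMO at the primary cilium, where the GLI proteins are switched from repressors to activators of transcription. PTCH1, GLI1 and HHIP are themselves classical targets of the pathway, so their transcripts are often read as a sign of signalling, and PTCH1 and HHIP limit the signal by holding ligand. In the embryo the pathway is best known for patterning the neural tube, the limbs and the gut, where endoderm secretes SHH and IHH towards the surrounding mesenchyme.

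The arrays were alike within a group, with correlations over the 14072 genes tested below of 0.9807 to 0.988 between arrays A and B. Correlations were 0.9784 to 0.9841 between doses of the same stage and 0.872 to 0.8942 between stages. Median signals were 69.2 to 79.4 on the undifferentiated arrays. On the embryoid body arrays they were 85.1 on both without ethanol and 102 on both with ethanol. Signals under the median of their own array are named as such below, because they are dim. Transcripts known to vary from line to line were also checked, and 4 of 8 arrays went against H9 as labelled, all of them in 1 of the 2 stages. A difference between stages and a difference between cell sources therefore cannot be told apart in any stage comparison below. In bulk RNA, fewer cells of a type and less RNA per cell cannot be told apart either.

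Promoter sequence is shown for 3 of these genes, PTCH1 because it holds a GLI-binding motif, and IHH and HHIP because they had the largest stage differences of the 9. Each run is the 250 bases before a transcription start in RefSeq on GRCh38.p14, 5′ to 3′ on the gene's strand, and capitals mark the motif. The PTCH1 window is chr9:95509267-95509516 on the minus strand, the IHH window chr2:219060922-219061171 on the minus strand, and the HHIP window chr4:144645906-144646155 on the plus strand.
PTCH1: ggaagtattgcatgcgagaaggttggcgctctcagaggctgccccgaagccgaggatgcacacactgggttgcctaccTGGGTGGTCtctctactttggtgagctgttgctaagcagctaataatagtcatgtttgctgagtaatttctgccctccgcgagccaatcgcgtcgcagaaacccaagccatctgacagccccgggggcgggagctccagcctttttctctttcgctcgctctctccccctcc
IHH: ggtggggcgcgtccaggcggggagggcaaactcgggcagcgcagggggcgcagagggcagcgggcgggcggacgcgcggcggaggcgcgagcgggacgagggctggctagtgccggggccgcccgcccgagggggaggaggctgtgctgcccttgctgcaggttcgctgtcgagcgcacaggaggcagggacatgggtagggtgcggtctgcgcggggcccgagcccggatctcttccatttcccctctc
HHIP: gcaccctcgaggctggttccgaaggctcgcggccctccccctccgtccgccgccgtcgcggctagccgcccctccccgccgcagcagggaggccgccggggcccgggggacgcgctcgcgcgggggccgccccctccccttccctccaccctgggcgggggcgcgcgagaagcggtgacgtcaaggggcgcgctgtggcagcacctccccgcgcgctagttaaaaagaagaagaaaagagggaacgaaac

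The motif searched was the GLI consensus TGGGTGGTC, on both strands (GACCACCCA on the other), together with the shorter GGGTGGTC that lies inside it and so overlaps it. Of the 9 genes, 7 matched the RefSeq table of windows, and GLI1 and GLI3 did not. The consensus was found in 1 of the 7, PTCH1, in 1 of its 5 windows, starting 172 bases before the transcription start and on the gene's own strand. Across all windows of that length, 70 of 35116 (0.199%) held the consensus and 298 (0.849%) held the shorter form, which among the 7 genes was found at the same PTCH1 site only. A match is a description of the letters, and the absence of a match says only that these letters are not in the windows.

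Most of the receiving and inhibiting side of the pathway stood above the undifferentiated level in embryoid bodies. PTCH1, HHIP, GLI3 and SMO transcripts were higher in embryoid bodies at both ethanol doses, as was the ligand IHH, while GLI1 and GLI2 passed the test at neither dose. Without ethanol, 6 of the 8 tested genes were called, meaning an adjusted p under 0.05 in limma's moderated test, and all 6 were higher. The 8 were those with a signal above the array median on at least 2 arrays, the condition that 14072 genes met. Of all tested genes, 52.8% were called in that comparison, 28% higher and 24.7% lower, so calls were common among genes in general. At 20 mM, 5 of the 8 were called, all higher, where 56.3% of all tested genes were called, 29.2% higher and 27.1% lower. The median log2 change of the 8 was 1.48 at 0 mM and 1.14 at 20 mM, against 0.02 over all tested genes. IHH and HHIP reached the array median in embryoid bodies only, so they entered the test through the group where they were high, which favours a call. Over all tested genes, 546 entered in this way, and 455 of these were called higher at 0 mM. Of the other 6 tested members, 4 were called higher at 0 mM, where 3491 of the 13526 genes that entered otherwise were called higher. SHH is 1 of these 4, and its call was lost in several other fits, as given below.

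**Figure D1:**
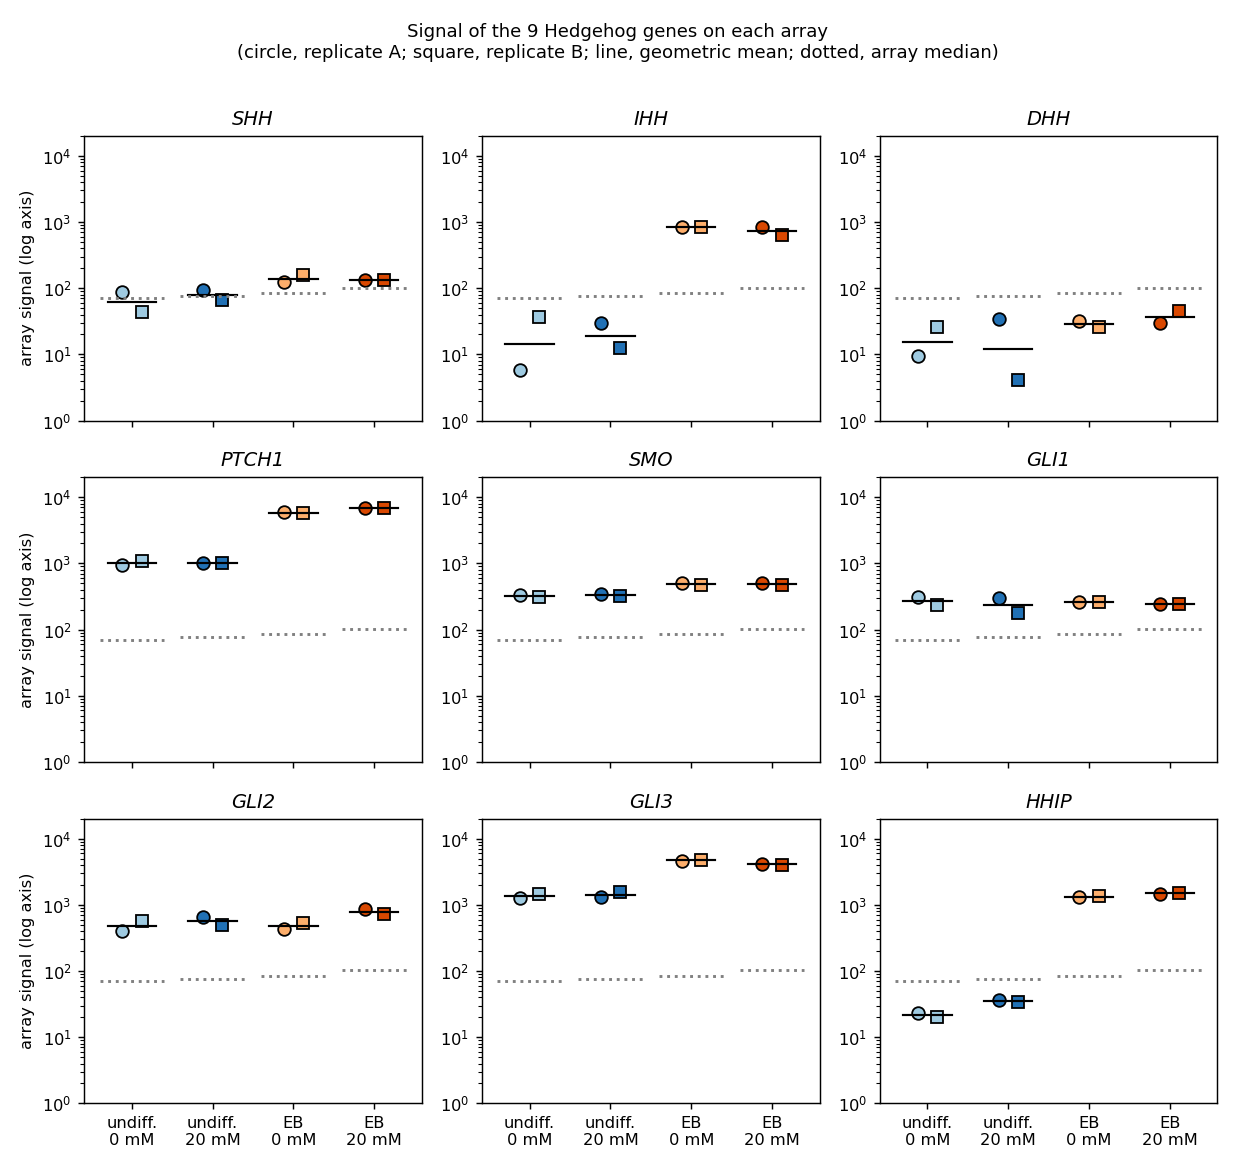
Signal of each of the 9 Hedgehog genes (highest probe set, log scale) on the 8 arrays, in 4 groups of stage and ethanol dose, with the array medians dotted. IHH and HHIP lie under the median on all 4 undifferentiated arrays and above it on all 4 embryoid body arrays, PTCH1 and GLI3 are above it throughout and higher in embryoid bodies, and DHH lies under it on every array.

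Among the ligands, IHH, the ligand best known from endoderm and cartilage, had signals of 5.75 and 36.3 in undifferentiated cells without ethanol and 29.5 and 12.6 with ethanol, all under the array medians. In embryoid bodies its signals were 832 and 851 without ethanol and 851 and 646 with ethanol. All 4 embryoid body arrays were above all 4 undifferentiated arrays, and within each stage the doses overlapped. The geometric mean in embryoid bodies was 12 times the median signal of the undifferentiated arrays at 0 mM and 9.66 times at 20 mM. The fit gave log2 changes of 5.86 ± 0.87 (SE, n = 2 per group) at 0 mM, with an adjusted p of 0.00283 in limma, and 5.27 ± 0.87 at 20 mM, with an adjusted p of 0.00363. These fitted sizes depend on dim undifferentiated signals, whose SD at 0 mM was 1.88 on the log2 scale against 0.02 in embryoid bodies. A ratio to an array median is therefore the size to read, and 12 and 9.66 use the undifferentiated arrays. Against the higher medians of the embryoid body arrays themselves, the ratios were 9.89 at 0 mM and 7.25 at 20 mM. The p-values are no independent support for a gene that entered the test through embryoid bodies. The second IHH probe set, 215420_at, read 9.12, 39.8, 126 and 15.9 across the 4 undifferentiated arrays and 186 to 214 across the embryoid body arrays, again without overlap between stages.

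SHH, the ligand of notochord and floor plate, stayed close to the array median. Its signals were 87.1 and 43.7 in undifferentiated cells without ethanol, 93.3 and 66.1 with ethanol, 123 and 158 in embryoid bodies without ethanol, and 132 and 135 with ethanol. It was above the array median on 2 of the 4 undifferentiated arrays and on all 4 embryoid body arrays, which did not overlap with the undifferentiated ones. SHH rose in embryoid bodies at 0 mM, to 1.995 times the median signal of the undifferentiated arrays, with an adjusted p of 0.033 in limma. Its own undifferentiated mean at that dose, 61.7, lay under that median, 70.0, so the fitted log2 change of 1.18 ± 0.35 (SE, n = 2 per group) rests partly on a dim signal. At 20 mM the change was 0.76, with a 95% interval of -0.10 to 1.62 and an adjusted p of 0.111. The call at 0 mM was kept in 7 of 17 other fits that tested SHH, with adjusted p from 0.00928 to 0.142, and it was lost on leaving out undifferentiated 0 mM array B (0.0927), embryoid body 0 mM array A (0.0687) or B (0.142), or embryoid body 20 mM array A or B (0.0595 each). It was also lost with no filter (0.066), quantile normalisation (0.0795), median centring (0.0638), cyclic loess (0.0629) and only the compared arrays in the fit (0.0937). The other SHH probe set, 207586_at, lay under the median on every array, at 3.55 to 36.3.

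DHH, the ligand known from the testis and nerve sheaths, lay under the array median on all 8 arrays and was not tested. Its signals were 9.33 and 25.7 in undifferentiated cells without ethanol, 34.7 and 4.07 with ethanol, 31.6 and 25.7 in embryoid bodies without ethanol, and 29.5 and 44.7 with ethanol. The ranges of the stages overlapped.

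PTCH1, the receptor that restrains SMO, was measured on its brightest probe set, 209815_at, at 933 and 1096 in undifferentiated cells without ethanol and at 1000 on both arrays with ethanol. In embryoid bodies it read 5888 and 5754 without ethanol and 6761 on both arrays with ethanol. The stages were far apart, and PTCH1 moved from between the 84.0th and 85.5th percentile of the probe sets on undifferentiated arrays to between the 97.3rd and 97.9th in embryoid bodies. It rose 5.75-fold at 0 mM, a log2 change of 2.52 ± 0.09 (SE, n = 2 per group) with an adjusted p of 3.35e-05 in limma, and 6.76-fold at 20 mM, with an adjusted p of 2.39e-05. The dimmer probe set 209816_at gave log2 differences of 1.94 and 1.63 at the 2 doses, and 1555520_at gave 0.93 and 1.08. The remaining PTCH1 probe sets, 208522_s_at and 238754_at, lay under the median on every array.

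SMO, the membrane protein that carries the signal inward, differed less. Its signals were 331 and 309 in undifferentiated cells without ethanol, 347 and 324 with ethanol, 513 and 479 in embryoid bodies without ethanol, and 501 and 468 with ethanol. Every embryoid body array was above every undifferentiated array, and within a stage the doses overlapped. SMO rose 1.55-fold at 0 mM, a log2 change of 0.63 ± 0.08 (SE, n = 2 per group) with an adjusted p of 0.00198 in limma, and 1.45-fold at 20 mM, with an adjusted p of 0.00316. Centring each array on its median ended the call at 20 mM, with a log2 change of 0.12 and an adjusted p of 0.29.

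HHIP, the membrane-bound decoy that holds Hedgehog ligand away from PTCH1, was under the array median before differentiation and well above it in embryoid bodies. Its signals in undifferentiated cells were 23.4 and 20.4 without ethanol and 36.3 and 33.9 with ethanol, all under the array medians. In embryoid bodies they were 1318 and 1349 without ethanol and 1479 and 1514 with ethanol, so that every embryoid body array was far above every undifferentiated array. The geometric mean in embryoid bodies was 19.1 times the median signal of the undifferentiated arrays at 0 mM and 19.5 times at 20 mM. Against the medians of the embryoid body arrays themselves, it was 15.7 times at 0 mM and 14.6 times at 20 mM. The fit gave log2 changes of 5.93 ± 0.09 (SE, n = 2 per group) at 0 mM, with an adjusted p of 4.69e-06 in limma, and 5.41 ± 0.09 at 20 mM, with an adjusted p of 6.78e-06, and these sizes and p-values are to be read with the same limit as those of IHH. The other 3 HHIP probe sets showed the same order of stages: 230135_at read 5.13 to 33.9 in undifferentiated cells and 363 to 490 in embryoid bodies, 237466_s_at 3.16 to 16.6 and 145 to 166, and 223775_at 1.32 to 23.4 and 85.1 to 132.

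The GLI factors did not move as a group. GLI3, the factor known mainly as the pathway's repressor, had signals of 1259 and 1479 in undifferentiated cells without ethanol, 1318 and 1549 with ethanol, 4571 and 4786 in embryoid bodies without ethanol, and 4169 and 3981 with ethanol. Every embryoid body array was above every undifferentiated array. GLI3 rose 3.43-fold at 0 mM, a log2 change of 1.78 ± 0.12 (SE, n = 2 per group) with an adjusted p of 0.000209 in limma, and 2.85-fold at 20 mM, with an adjusted p of 0.00029. A second probe set, 205201_at, gave differences of 1.71 and 1.46 on the log2 scale, and the dimmest, 1569342_at, gave 0.25 and -0.28, with overlapping stages.

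GLI1, the activator whose own transcript is induced by the pathway, had signals of 316 and 234 in undifferentiated cells without ethanol, 302 and 178 with ethanol, 263 and 257 in embryoid bodies without ethanol, and 240 and 246 with ethanol. The embryoid body arrays lay inside the range of the undifferentiated ones. The log2 change was -0.07 at 0 mM, with a 95% interval of -0.72 to 0.59 and an adjusted p of 0.851 in limma, and 0.07 at 20 mM, with an interval of -0.59 to 0.72. These intervals do not hold a change of the size of PTCH1 or HHIP at either dose, and their width leaves smaller changes unmeasured.

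GLI2, the main activator in many tissues, had signals of 407 and 562 in undifferentiated cells without ethanol, 661 and 501 with ethanol, 437 and 525 in embryoid bodies without ethanol, and 851 and 724 with ethanol. At 0 mM the stages overlapped and the log2 change was 0.00, with a 95% interval of -0.53 to 0.53. At 20 mM both embryoid body arrays were above both undifferentiated arrays, by 0.45 on the log2 scale, with an interval of -0.08 to 0.98 and an adjusted p of 0.126 in limma. The second GLI2 probe set, 207034_s_at, did not repeat this: it read 398, 417, 427 and 302 across the undifferentiated arrays and 295, 295, 324 and 302 across the embryoid body arrays. The third, 208057_s_at, lay under the median throughout.

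**Figure D2:**
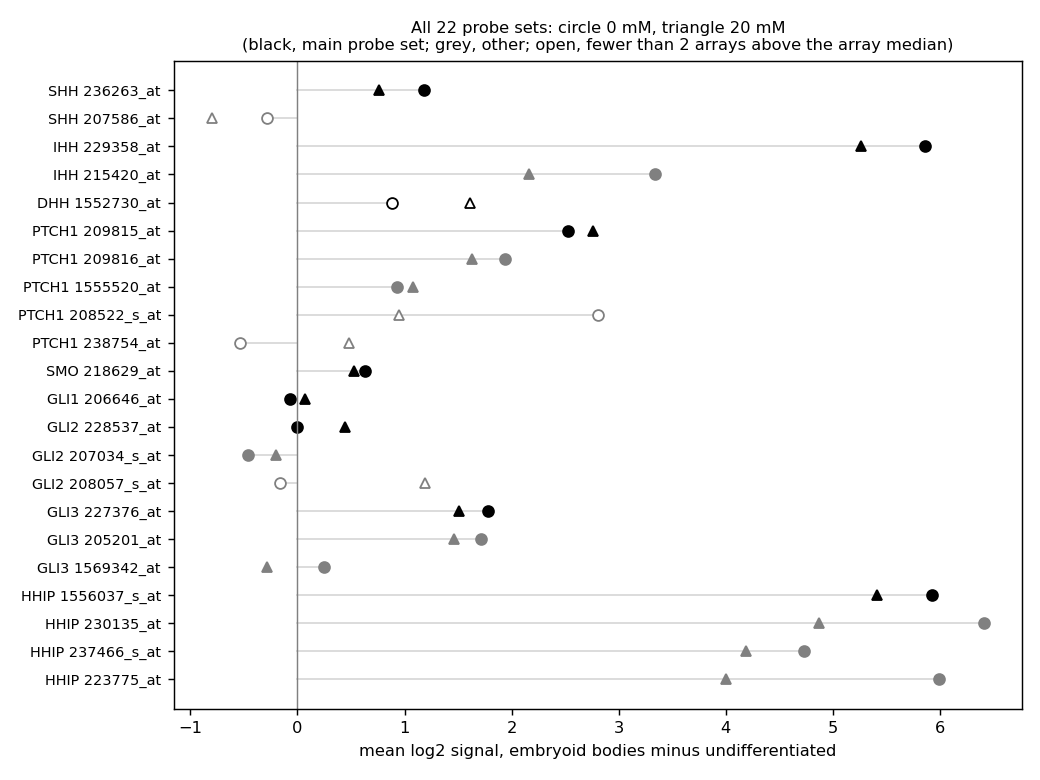
Log2 differences between embryoid bodies and undifferentiated cells for each of the 22 probe sets of the 9 genes, at 0 and 20 mM ethanol, with probe sets above the array median on fewer than 2 arrays marked apart. In 13 of the 22, among them all 4 of HHIP and 3 of the 5 of PTCH1, every embryoid body array was above every undifferentiated array, and none of the GLI1, GLI2 and DHH probe sets was among the 13, while the IHH and HHIP differences start from undifferentiated signals mostly under the array median. The share of all probe sets with this order was not computed, so the 13 are a description. Between stages, 52.8% of all tested genes were called at 0 mM and 56.3% at 20 mM.

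The ethanol comparison asks whether 24 h at 20 mM changed these transcripts within a stage. None of the 8 tested genes was called in undifferentiated cells, where 0.00711% of all tested genes were called, and none in embryoid bodies, where 0.0711% were called. Over all genes these shares moved with the setting, from 0 to 34 genes called in undifferentiated cells and from 0 to 3880 in embryoid bodies over 20 other fits. The ethanol and stage comparisons share their arrays. At an unadjusted p under 0.05 in limma, 1 of the 8 passed in undifferentiated cells, HHIP, and 1 in embryoid bodies, GLI2, against 986 and 3137 of the 14072 tested genes. The test of whether the ethanol effect differed between stages called none of the 8 and 0% of all genes, with 1 member, HHIP, and 1828 genes at an unadjusted p under 0.05.

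In undifferentiated cells HHIP was the single member whose arrays did not overlap between doses, as was so for 27.5% of all tested genes. Its ethanol arrays, at 36.3 and 33.9, were above the arrays without ethanol, at 23.4 and 20.4, but all 4 were under the array medians, so no size of the difference is given. The unadjusted p was 0.00033 and the adjusted p 0.245 in limma. IHH was also under the median on these 4 arrays, and its doses overlapped. For PTCH1, SMO, GLI1, GLI2 and GLI3, which were above the median on every array, the log2 changes ran from -0.23 for GLI1 to 0.27 for GLI2, each with a 95% interval that holds 0. The intervals were narrow for SMO, -0.14 to 0.27, and PTCH1, -0.24 to 0.21, and wider for GLI1, -0.89 to 0.42, and SHH, -0.51 to 1.21.

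In embryoid bodies the arrays did not overlap between doses for 5 of the 8 members, PTCH1, GLI1, GLI2, GLI3 and HHIP, where 57.5% of all tested genes did not overlap. GLI2 had the largest difference: 851 and 724 with ethanol against 437 and 525 without it, a log2 change of 0.71 ± 0.22 (SE, n = 2 per group) with a 95% interval of 0.18 to 1.25, an unadjusted p of 0.0171 and an adjusted p of 0.15 in limma. The other GLI2 probe set above the median, 207034_s_at, differed by 0.08 between the doses. The test of the stages' ethanol effects against each other gave a difference of 0.45 for GLI2, with an adjusted p of 0.565.

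PTCH1 was higher on both ethanol arrays of embryoid bodies, with a log2 change of 0.22 ± 0.09 (SE, n = 2 per group), a 95% interval of -0.01 to 0.44 and an adjusted p of 0.241 in limma. HHIP was also higher on both, by 0.17, with an interval of -0.06 to 0.39. GLI3 was lower on both, by -0.20, with an interval of -0.49 to 0.09 and an adjusted p of 0.364, and under median centring, where 3708 of 3880 called genes were lower, its change was -0.47 with an adjusted p of 0.0489. GLI1 was lower on both by -0.10, with an interval of -0.75 to 0.55. SHH, IHH and SMO overlapped between doses, with log2 changes of -0.07, -0.18 and -0.03. The direction for PTCH1 and HHIP in embryoid bodies flips under median centring, to -0.05 and -0.10, a scaling that moves the median of all tested genes to -0.25.

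**Figure D3:**
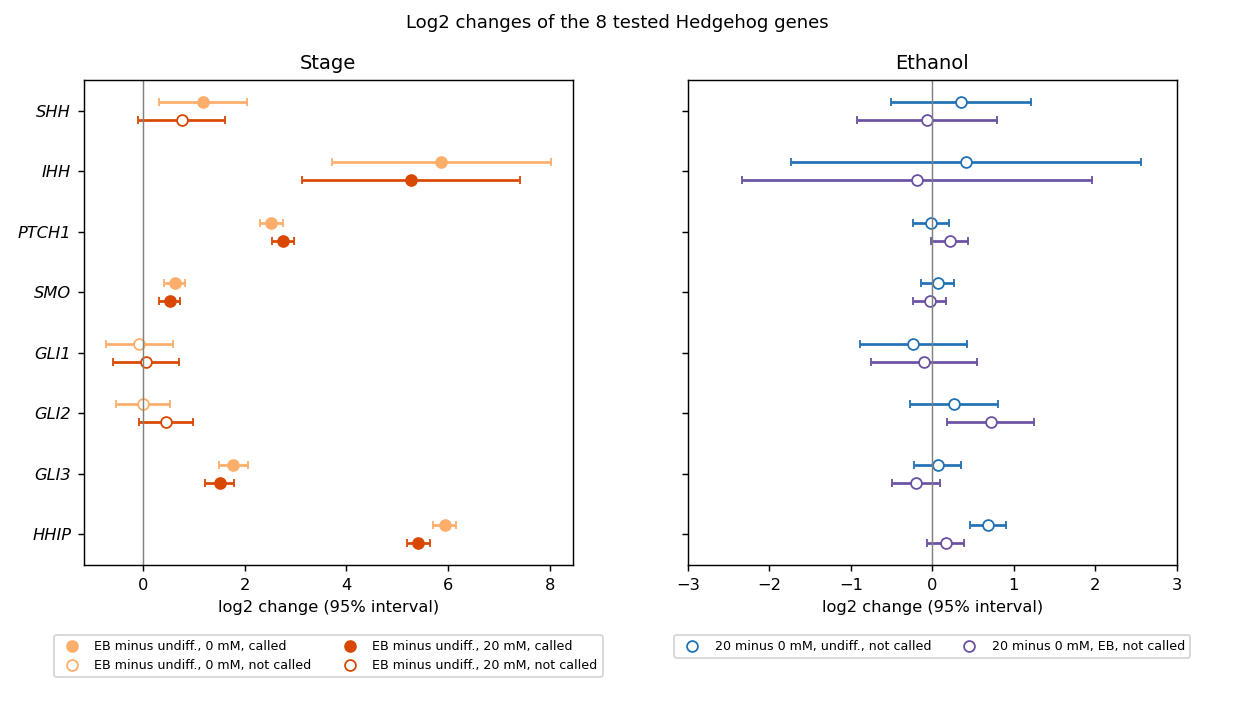
Fitted log2 changes with 95% intervals of the 8 tested Hedgehog genes, for embryoid bodies against undifferentiated cells at each dose (left) and for 20 against 0 mM ethanol within each stage (right), filled where the adjusted p is under 0.05. Filled points occur in the stage panel only, 6 at 0 mM and 5 at 20 mM, and every IHH and HHIP value that involves undifferentiated cells rests on signals under the array median there.

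The genes that process and release Hedgehog ligand, and the co-receptors and other proteins that bind it, were mostly higher in embryoid bodies. These lists and those that follow were also chosen with earlier results of these data known, so their counts are descriptions. Of the 5 genes of ligand processing and release, all tested, 4 were called higher at 0 mM and 4 at 20 mM, where 28% and 29.2% of all tested genes were called higher, with medians of 1.94 and 1.83 on the log2 scale against 0.02 over all genes. DISP1, which releases lipid-bearing ligand from the cell, rose 3.85-fold at 0 mM (adjusted p 7.04e-05 in limma), and HHAT, which attaches the fatty acid, rose 3.35-fold (adjusted p 0.00331). SCUBE3, a secreted carrier of ligand, rose 11.0-fold, from a geometric mean of 136 to 1496 (adjusted p 6.89e-05). SCUBE1, of the same family, read 24.5 before differentiation, under the array median, and 457 in embryoid bodies (adjusted p 0.00222).

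Of 6 listed co-receptors and other ligand binders, 5 had their own probe set, and these 5 were called higher at both doses, against the same 28% and 29.2% of all tested genes, with medians of 2.56 and 2.66. BOC, a co-receptor of the immunoglobulin family, rose 19.7-fold at 0 mM, from 282 to 5559 (adjusted p 2.79e-05 in limma). Its relative CDON rose 3.55-fold, the anchored co-receptor GAS1 6.84-fold, and LRP2, an endocytic receptor that binds SHH, 5.89-fold, with adjusted p of 5.89e-05, 3.05e-05 and 9.16e-05. With ethanol in embryoid bodies, LRP2 differed by 0.40 and GAS1 by 0.13 on the log2 scale, with adjusted p of 0.161 and 0.45.

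In the list of the cilium and the relay to the GLI factors, genes were called about as often as genes in general, and most of the calls were higher. Of 24 listed genes 22 were tested, and 10 were called higher and 1 lower at each dose. Among all tested genes, 52.8% were called at 0 mM, 28% higher and 24.7% lower. At 20 mM 56.3% were called, 29.2% higher and 27.1% lower. The list's medians were 0.34 and 0.27. EVC, a cilium protein that passes the signal on from SMO, read 37.1 in undifferentiated cells, under the array median, and 432 in embryoid bodies at 0 mM (adjusted p 0.000375 in limma), and its partner EVC2 rose 1.72-fold (adjusted p 0.00439). GPR161, a ciliary receptor that restrains the pathway, rose 3.09-fold (adjusted p 0.0011) and the kinase STK36 2.48-fold (adjusted p 0.000122). The gene called lower was RAB23, a GTPase that restrains the pathway, at 0 mM, by -0.33 (adjusted p 0.0165), and CSNK1A1, a kinase that acts on GLI proteins, at 20 mM, by -0.48 (adjusted p 0.00264), and CSNK1A1 was picked out after its value was seen. With ethanol in embryoid bodies, RAB23 differed by 0.43 and INPP5E, a ciliary phosphatase, by 0.28, with adjusted p of 0.0894 and 0.152.

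Of 22 genes listed as responding to Hedgehog signal in some tissue, 13 were tested, and the other 9 did not reach the array median on 2 arrays. At 0 mM 9 of the 13 were called higher and 1 lower, with a median of 1.13, and at 20 mM 10 and 1, with a median of 1.21, where 28% and 29.2% of all tested genes were called higher. Among the 13, FOXF1, FOXF2, OLIG2 and TBX2 were above the array median on no undifferentiated array. They entered the test through embryoid bodies, which favours a call. Of the other 9, 5 were called higher at 0 mM, where 3491 of the 13526 genes that entered otherwise were called higher. FOXA2, a transcription factor of floor plate and of endoderm, rose 14.0-fold at 0 mM, from 78.5 to 1096 (adjusted p 0.000224 in limma), and BCL2, which blocks cell death, rose 3.63-fold (adjusted p 7.11e-05). The mesenchymal transcription factor FOXF2 went from 9.44 before differentiation to 232 in embryoid bodies, and TBX2 from 13.3 to 204, and no p is given for these because of how they entered the test. The gene called lower at 0 mM was SFRP1, a WNT antagonist, at -0.63 (adjusted p 0.00305), named after its value was seen. No gene of these 4 lists was called for ethanol in either stage, and the largest such differences in embryoid bodies by the rule for naming were TBX2 at 0.86 and FOXD1 at 0.997, with adjusted p of 0.127 and 0.182.

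**Figure D4:**
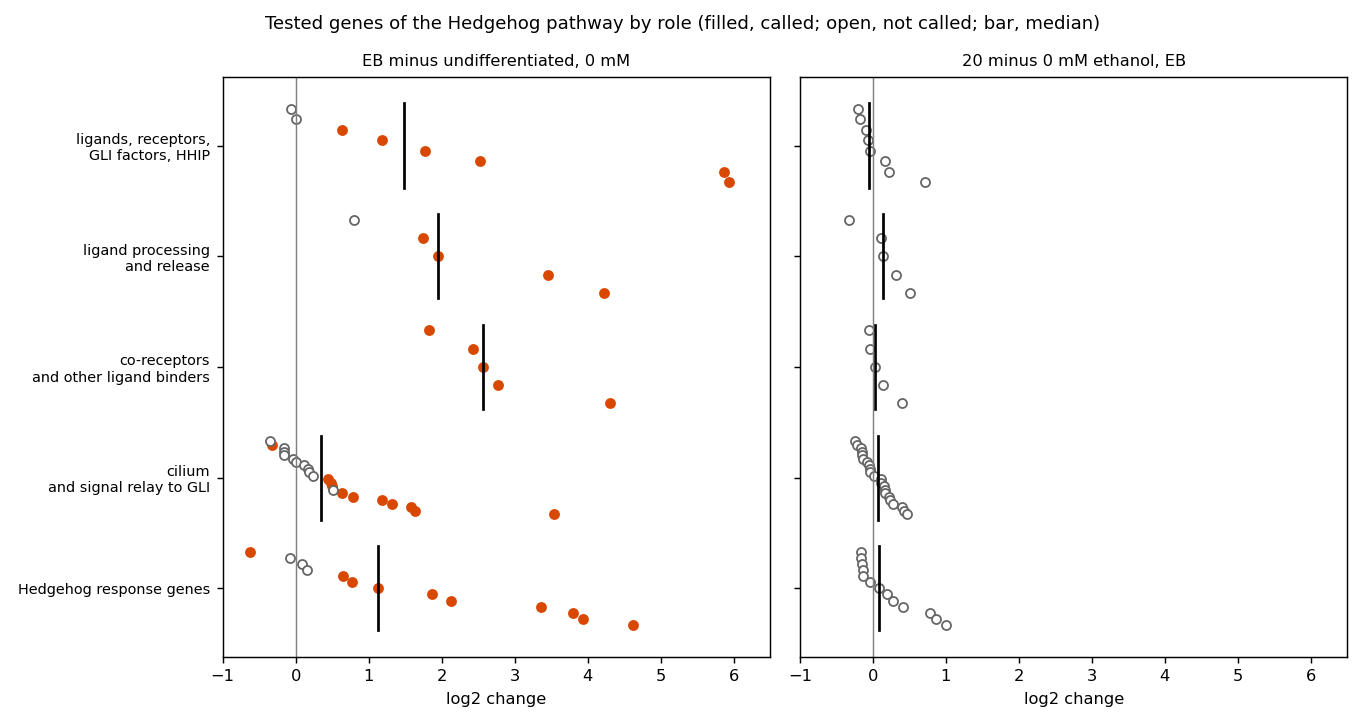
Log2 changes of each tested gene in the Hedgehog genes and in 4 further pathway lists, for the stage difference at 0 mM and for ethanol in embryoid bodies, with the median of each list marked. The list medians in the stage comparison run from 0.34 for the cilium and relay to 2.56 for the co-receptors, and those for ethanol from -0.05 to 0.13.

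Markers of several cell types moved with the stage in the same arrays. Beside the calls below, 28% of all tested genes were called higher and 24.7% lower at 0 mM, and 29.2% and 27.1% at 20 mM. GATA4, TWIST1 and CHRD, among those called higher at 0 mM, were above the array median on no undifferentiated array. They therefore entered the test through embryoid bodies, which favours a call. The summed signal of 8 endoderm markers was 957 to 1266 on undifferentiated arrays and 39820 to 48140 on embryoid body arrays, and all 8 were called higher at both doses. That of 11 mesoderm and mesenchyme markers went from between 5642 and 7079 to between 33160 and 57050 (9 called higher and 1 lower at 0 mM), and that of 9 neuroectoderm markers from between 17150 and 21160 to between 25350 and 26470 (5 higher and 2 lower of 8 tested). The 7 notochord and floor plate markers, which include SHH and FOXA2, summed to 859 to 1015 and 4245 to 5355, with 5 called higher at 0 mM. FOXA2 is also among the endoderm markers. TBXT, a defining notochord marker, was not called at 0 mM, at 182 and 229 in the 2 stages (adjusted p 0.358 in limma). FOXJ1 was not called either, at 95.5 and 86.1 (adjusted p 0.807). The 11 pluripotency markers summed to 111400 to 118500 in undifferentiated cells and 69640 to 81710 in embryoid bodies, with 8 called lower at 0 mM. The 6 endothelial markers summed to 2605 to 3249 and 2120 to 2814, with CDH5 and CLDN5 under the median on every array, and the 3 blood markers to 24.0 to 65.9 and 86.0 to 152, with PTPRC and SPI1 under it on every array. Several sums also differed between doses within embryoid bodies without overlap, as the signals of 57.5% of all tested genes did. The array median itself was 85.1 on both 0 mM arrays and 102 on both 20 mM arrays of embryoid bodies. These sums are therefore given as descriptions only. From 0 to 20 mM the mesoderm and mesenchyme sum went from between 33160 and 33370 to between 56460 and 57050, the endoderm sum from between 39820 and 40190 to between 47080 and 48140, and the notochord and floor plate sum from between 4245 and 4434 to between 4946 and 5355. The neuroectoderm sum went from between 25350 and 25950 to between 26360 and 26470, the endothelial sum from between 2120 and 2286 to between 2688 and 2814, and the pluripotency sum from between 80220 and 81710 down to between 69640 and 72210. The blood sums overlapped, and no gene of these lists was called for ethanol. The part of these cell types in the Hedgehog results was not tested.

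The genes whose log2 signals ran most closely with each member over the 8 arrays differed between the members that followed the stage and those that did not. The nearest genes to PTCH1 were TFF1, LGR5 and APOB, each at a Pearson r of 0.999, to HHIP they were FIGNL1, YAF2 and HEY1, at 0.9989 to 0.9998, and to GLI3 GPC1, POGLUT1 and ENO3, at 0.999. For SMO they were CMTM3, LEPROTL1 and ARMCX6, at 0.997 to 0.999, and for IHH SMPD1, FAM184A and PGF, at 0.994 to 0.995. Such values are common where a gene follows the stage: 14.8% of all tested genes had an r above 0.95 with PTCH1, 14.4% with HHIP, 12.6% with GLI3, 11% with SMO and 8.3% with IHH. SHH ran closest to BRPF1, DLX5 and LRP1B, at 0.974 to 0.988, with 21 genes above 0.95. GLI2 ran closest to FMN1, CNTFR and CLEC1B, at 0.964 to 0.970, with 6 genes above 0.95, and GLI1 to CCT6B, EGLN3 and CAPNS2, at 0.910 to 0.958, with 1. Between the members, IHH, PTCH1, SMO, GLI3 and HHIP had pairwise r of 0.945 to 0.993, GLI2 0.281 to 0.431 with these 5, and GLI1 -0.087 to 0.084. All these points are the same 8 arrays in 2 stages, so each r is a description.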

How the data were processed

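Biotin-labelled RNA from 8 samples was measured on Affymetrix arrays of 54675 probe sets, and the groups were taken from the sample titles. RMA is named, without a version, per the submitters' processing notes. The deposited values are log10 signals with 2 decimals, and their 2% trimmed mean, as signal, was 500 to 500.1 for all 8 arrays, which is what MAS 5 global scaling gives and RMA does not. They were multiplied by 3.322 to give log2 values, with no further normalisation; how the authors corrected the background is not given in the sources used here. Such signals of dim probe sets scatter widely between arrays, and the small number of arrays limits the precision.

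GEO's platform annotation named 1 gene for 41091 probe sets, several for 1801 and none for 11721, apart from 62 controls. Each gene was represented by its probe set with the highest mean. Genes above the array median on at least 2 arrays were tested, 14072 in all, with 1 limma fit (limma 3.58.1, R 4.3.3) of the 4 groups over all 8 arrays, with 4 residual degrees of freedom per gene. P-values were adjusted by Benjamini-Hochberg over all 14072, and an adjusted p under 0.05 is a call. The script was tested on simulated data. No label says that arrays with the same letter are paired, so no block was used in the main fit. The differences between A and B correlated at -0.026 to 0.049 over 6 pairs of groups. Such values show no shift shared by letter, but they cannot exclude paired cultures. Leaving out each array, and 12 other settings of filter, probe set, scaling, variance, floor and block, were tried.

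All 9 genes are named with all their probe sets. Of each further pathway list, up to 4 genes with the smallest p between stages at 0 mM and up to 2 for ethanol in embryoid bodies are named, and for each tested member the 3 genes with the highest r. The members and lists were chosen with earlier results of these data known.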

Additional observations from a re-analysis of the deposited data

How the results depend on the processing

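The arrays limit these results to 2 values per group, and signals under the array median limit IHH, HHIP and SHH in undifferentiated cells. IHH and HHIP also entered the main test through embryoid bodies, which favours their calls. The other fits reuse the same arrays, so they are no independent support. IHH, PTCH1, GLI3 and HHIP were called higher in embryoid bodies at both doses in 20 of 20 other fits, and SMO at 0 mM in 20 and at 20 mM in 19. The number of members called was 5 to 6 at 0 mM and 4 to 6 at 20 mM, with 6 to 9 tested. With no filter, 5 of 9 members were called at each dose, where 6521 and 7190 of 19775 genes were called. With the filter at the 75th percentile, 5 of 6 were called at each dose, where 5949 and 6354 of 9041 genes were called. For ethanol the number of members called was 0 in all fits except 1 in embryoid bodies under median centring. With the replicate block, a paired fit by letter, 6 and 5 of 8 members were called between stages and 0 for ethanol. Over all genes, 7210 and 7785 of 14072 were called between stages with the block. The letters are not said to pair the arrays. Over all genes, ethanol calls ran from 0 to 34 against 1 in undifferentiated cells, from 0 to 3880 against 10 in embryoid bodies (0 and 0 with the block, 959 in embryoid bodies with a trended variance) and from 0 to 31 against 0 for the difference. SHH was called at 20 mM in 3 of 17 fits. The cause of the changes in sign below was not tested.

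Signs turned in these settings, given as log2 changes. With the mean of all probe sets, PTCH1 changed by 0.15 and GLI2 by -0.33 with ethanol in undifferentiated cells, PTCH1 by -0.01 in embryoid bodies and by -0.16 in the difference of the ethanol effects. Without the _x_at and _s_at probe sets, and with the probe set of highest SD, HHIP changed by -0.20 with ethanol in embryoid bodies. Median centring gave -0.07 for SMO and -0.07 for GLI3 with ethanol in undifferentiated cells, -0.05 for PTCH1 and -0.10 for HHIP in embryoid bodies, and -0.35 for GLI1 between stages at 20 mM, where quantile normalisation gave -0.24 and cyclic loess -0.16. Under it the median of all genes lay at -0.12 to -0.40 in the 5 comparisons, against -0.02 or 0.02 without it, and the stage calls at 0 mM from 3946 higher and 3478 lower to 2506 and 5814. A floor of 16 gave -0.15 for IHH with ethanol in undifferentiated cells.

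Leaving out each array turned the sign of 13 small changes. For ethanol in undifferentiated cells the range was -0.61 to 0.15 for GLI1, -0.05 to 0.18 for GLI3, -0.91 to 1.74 for IHH, -0.13 to 0.10 for PTCH1 and -0.15 to 0.85 for SHH. For ethanol in embryoid bodies it was -0.38 to 0.02 for IHH, -0.25 to 0.12 for SHH and -0.08 to 0.02 for SMO. For the difference of the ethanol effects it was -0.25 to 0.51 for GLI1, -1.93 to 0.73 for IHH and -0.91 to 0.08 for SHH. For GLI1 between stages it was -0.28 to 0.15 at 0 mM and -0.32 to 0.45 at 20 mM.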
